A study of Mus musculus with 14 samples.

Results

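The genes described here are the ligands and receptors of 9 axon guidance families, namely the semaphorins with their plexin and neuropilin receptors, the ephrins with the Eph receptors, the Slit ligands with the Robo receptors, and the netrins with the Unc5 receptors. They were chosen by gene symbol among the protein-coding genes of the GENCODE annotation of mm10, and 68 of 21938 genes matched. Of these, 35 encode ligands (20 semaphorins, 8 ephrins, 3 Slit genes and 4 netrins) and 33 encode receptors (9 plexins, 2 neuropilins, 14 Eph receptors, 4 Robo genes and 4 Unc5 genes). No measured value entered the rule, though it was set with earlier results of these data known.

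Chromatin immunoprecipitation followed by sequencing (ChIP-seq) had been carried out in 81K1 cells, a mouse embryonic stem cell line made from the OG2 line. In these cells an shRNA against Smarcb1, a core subunit of the BAF chromatin remodelling complex, was inserted at the Rosa26 locus of clone K1 under a promoter that needs doxycycline. Untreated 81K1 cells were the control (ctrl), and cells with 1 µg/ml doxycycline for 72 h were the Smarcb1 knockdown (kd), so that both groups carried the same insertion and stemmed from 1 clone. The 5 antibodies were directed at 2 proteins, Smarca4 and Ezh2, and at the histone marks H3K27me3, H3K27ac and H3K4me3, with 1 library per antibody and condition, besides 4 input samples. The deposited lists hold called regions: peaks for Smarca4 and Ezh2, and broader islands for the histone marks. With 1 library per condition no difference has a replicate check, and no test between conditions was made. A region called in 1 condition and not in the other is a difference between 2 lists of calls, not a measured loss or gain of binding. The lists carry no read counts. An approximate read number, the same for every library, is stated in the methods for Ezh2, H3K27ac and H3K4me3, while the depth actually reached by each library is not in the lists. RNA was not analysed here, and the lists do not check the knockdown of Smarcb1 itself.

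Growing axons are steered by these proteins. Semaphorins, ephrins, Slits and netrins are secreted or membrane-bound cues, and the plexins, neuropilins, Eph receptors, Robo and Unc5 proteins are the receptors that turn them into attraction or repulsion. In embryonic stem cells many developmental genes carry H3K4me3, a mark of gene starts, together with H3K27me3, the mark set by the Polycomb repressive complex with its catalytic subunit Ezh2. This pair is called bivalent. H3K27ac marks active promoters and enhancers, and Smarca4 is the ATPase of the BAF complex.

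Both conditions were checked against cell type markers. All 9 genes chosen to mark embryonic stem cells had an H3K27ac island in their gene region in either list. Within 1 kb of the transcription start site (TSS), H3K27ac was called for 6 of 9 in control and 8 in kd. H3K4me3 was called there for 8 in either list, and H3K27me3 for 2 in control (Esrrb and Klf4) and 1 in kd (Esrrb). Of 6 neural genes, 5 had H3K27me3 at the TSS in control and 6 in kd, while H3K27ac at the TSS was called for none in control and for 1, Sox1, in kd. In the gene region H3K27ac was called for 1 neural gene in control and 3 in kd, and H3K4me3 was at the TSS of 5 in either list. Of 3 fibroblast genes, all had H3K27me3 at the TSS in both lists, and 2 (Col1a1 and Thy1) had H3K4me3 there in kd alone. The part of other cell types in the differences described here was not tested. The lists themselves differed in length, from 79014 peaks in control to 72339 in kd for Smarca4 and from 6708 to 5364 for Ezh2. Islands went from 39091 to 51100 for H3K27ac, from 22909 to 18320 for H3K27me3, and from 26130 to 33506 for H3K4me3.

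In control cells the starts of the guidance genes were mostly covered by Smarca4, H3K27me3 and H3K4me3 and seldom by H3K27ac. Within 1 kb of the TSS, Smarca4 was called at 62 of 68 guidance genes, against 62.5% of all protein-coding genes, H3K27me3 at 59 against 34.9%, and H3K4me3 at 53 against 56.6%. Ezh2 was called at 29 of the 68 starts, against 7.13% of all genes. H3K27ac was called at only 2, those of Ephb4, a receptor of ephrin-B ligands, and Sema4b, a transmembrane semaphorin, against 16.0% of all genes. In kd the counts were 61 for Smarca4 (63.5% of all genes), 56 for H3K27me3 (29.2%), 58 for H3K4me3 (60.4%), 37 for Ezh2 (12.6%) and 12 for H3K27ac (30.9%). The guidance genes thus stood above the whole annotation for 4 antibodies and below it for H3K27ac, in both conditions.

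**Figure D1:**
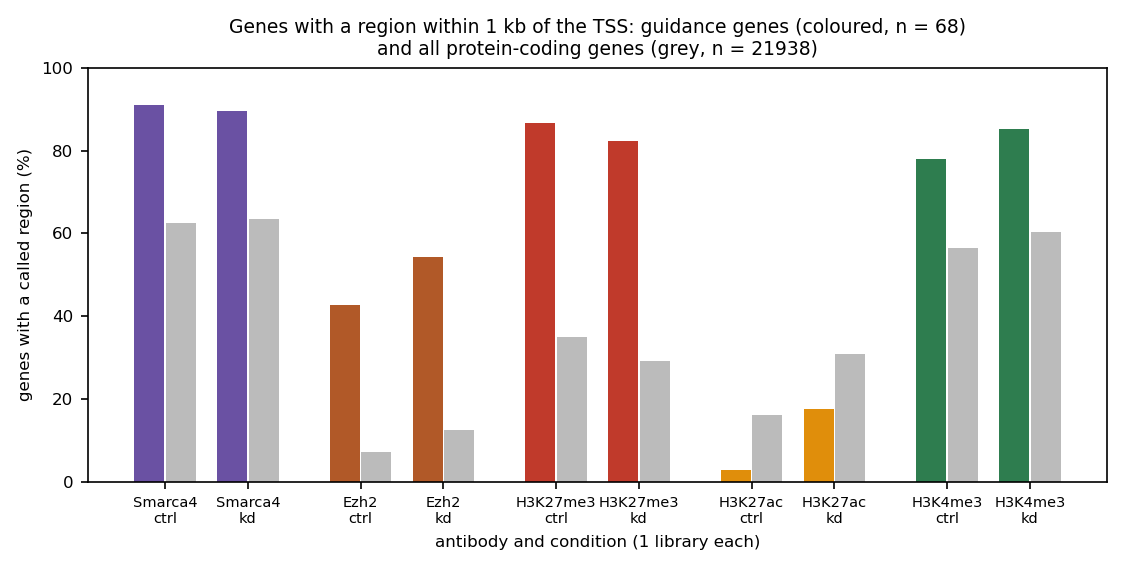
Share of genes (%, vertical axis) with a called region within 1 kb of the TSS, for each antibody and condition (horizontal axis, 1 library each), among the 68 guidance genes (coloured bars) and all 21938 protein-coding genes (grey bars). The coloured bar is the taller one in every pair except H3K27ac, where 2 guidance genes in control and 12 in kd had a region.

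Guidance genes are long, with a median gene region of 46.1 kb against 18.4 kb for all protein-coding genes, and long genes hold more called regions. The window of 1 kb on either side of the TSS has the same size in each gene. For H3K27me3 and Ezh2 the guidance genes stood above the annotation in each class of gene length as well: among the 21 guidance genes under 20 kb, H3K27me3 was called at 19 starts in control (90.5%, against 31.1% of all genes of that class), and among the 31 over 100 kb at 28 (90.3% against 54.8%). Ezh2 was called at 18 of the 31 long guidance genes in control, 58.1% against 18.7% of all genes of that class.

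By family, in control, H3K27me3 lay at the TSS of all 8 ephrins, all 4 netrins, all 3 Slit genes, all 4 Unc5 genes and both neuropilins, at 13 of 14 Eph receptors, 17 of 20 semaphorins, 6 of 9 plexins and 2 of 4 Robo genes. Ezh2 was called at the TSS of all 4 Unc5 genes, the repulsive netrin receptors, and of both neuropilins, the co-receptors of secreted semaphorins, but at 6 of 20 semaphorins, 3 of 9 plexins, 4 of 8 ephrins, 6 of 14 Eph receptors, 2 of 4 Robo genes, 1 of 3 Slit genes and 1 of 4 netrins. Ligands and receptors had Ezh2 at 12 of 35 and 17 of 33 starts in control, and at 19 of 35 and 18 of 33 in kd.

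**Figure D2:**
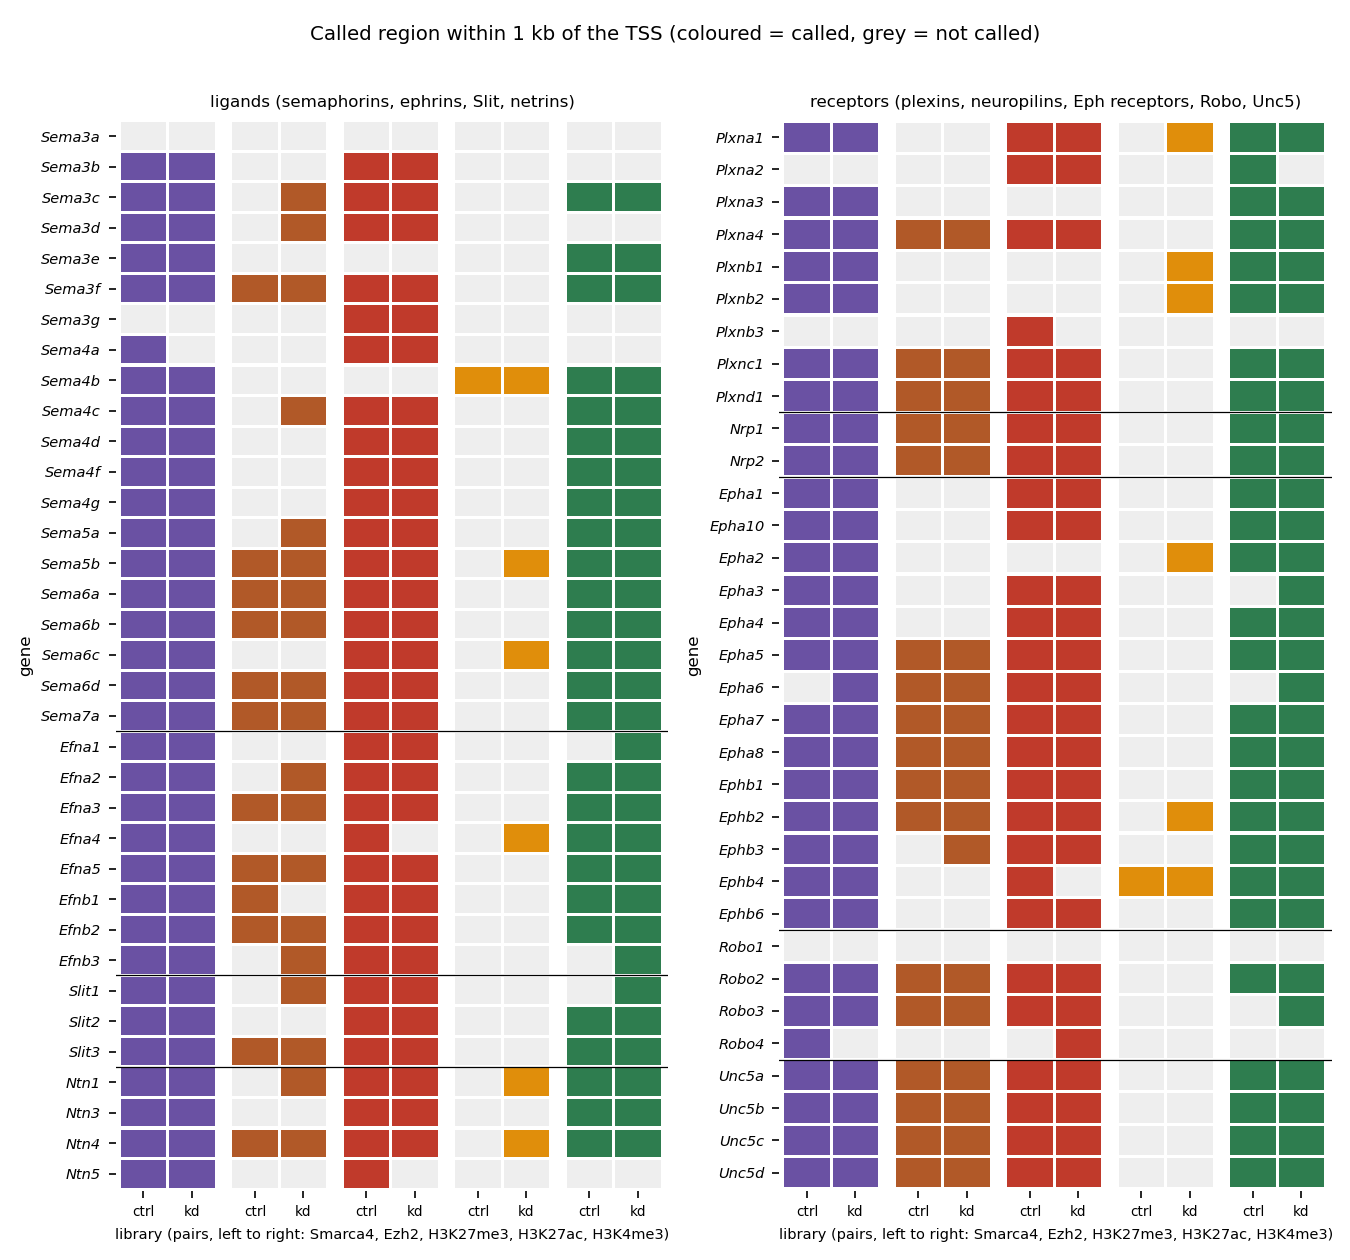
Each row is a guidance gene, ligands on the left and receptors on the right, and each column a library (ctrl or kd, 1 each, for 5 antibodies); a coloured cell means a called region within 1 kb of the TSS and a grey cell none. Smarca4, H3K27me3 and H3K4me3 fill most rows, Ezh2 was called in 29 rows in control and 37 in kd, and H3K27ac in 2 and 12.

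Most guidance genes were bivalent, meaning that H3K4me3 and H3K27me3 were both called within 1 kb of the TSS. This held for 47 of 68 genes in control (21.2% of all protein-coding genes) and for 50 in kd (21.6%). Of these, 44 were the same genes (17.3% of all genes were bivalent in both). The 3 marks were read together as a state, and 47 guidance genes (69.1%) had the same state of H3K4me3, H3K27me3 and H3K27ac in both lists, close to the 68.8% of all genes. Bivalent in kd alone were 6 guidance genes (8.82%, against 4.30% of all genes). They were Efna1 and Efnb3, 2 ephrins, the Eph receptors Epha3 and Epha6, Slit1, a repellent ligand, and Robo3, a Robo receptor of commissural axons. In all 6, H3K27me3 was called in both lists and H3K4me3 in kd alone. Bivalent in control alone were Efna4, Ephb4 and Plxna2, a semaphorin receptor (4.41% of guidance genes, near the 3.96% of all genes). Within 1 kb of the TSS, Efna4 and Ephb4 had H3K4me3 in both lists and H3K27me3 in control alone. At Plxna2 H3K27me3 was in both lists and H3K4me3 in control alone. In the gene region, however, H3K27me3 covered 3.81 kb of Efna4 in control and 3.61 kb in kd, and H3K4me3 2.2 and 1.6 kb of Plxna2. Only 3 starts had none of the 3 marks in control, those of Robo1, Robo4 and Sema3a. At Robo4, the Robo receptor of endothelial cells, an H3K27me3 island of 12600 bp reached the 1 kb window in kd alone. It overlapped a control island, and H3K27me3 covered 11.1 kb of the gene region in control and 12.8 kb in kd.

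Among the bivalent guidance genes, Ezh2 was called at 27 of 47 starts in control (57.4%, against 29.2% of all bivalent genes) and at 36 of 50 in kd (72.0% against 55.5%). Smarca4 was called at 46 of 47 and at all 50, while the shares over all bivalent genes were 97.5% and 97.4%. H3K27ac lay at 1 of the 47 in control and at 6 of the 50 in kd, 2.13% and 12%, against 6.19% and 19.2% of all bivalent genes.

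The starts of the guidance genes were rich in CG dinucleotides. The window from 250 bases before to 50 bases after the TSS held a median of 18.5 CG dinucleotides in guidance genes and 11 in all protein-coding genes. Among bivalent genes in control the medians were 22 for guidance genes and 21 for all. The 3 starts with neither H3K4me3 nor H3K27me3 in control had a median of 3. To show this range, the 250 bases before the TSS of 5 guidance genes are given 5′ to 3′ on the gene's strand, from the GRCm38 reference sequence, with CG dinucleotides in capitals. Ephb2 (minus strand, chr4:136835989-136836238, 21 CG) and Unc5b (minus strand, chr10:60831582-60831831, 27 CG) were bivalent in both lists. Slit1 (minus strand, chr19:41743666-41743915, 20 CG) was bivalent in kd alone. Sema4b (plus strand, chr7:80186591-80186840, 18 CG) had H3K27ac with H3K4me3 in both lists. Robo1 (plus strand, chr16:72308056-72308305, 1 CG) had no called region of any antibody within 1 kb of the TSS in either condition.
Ephb2: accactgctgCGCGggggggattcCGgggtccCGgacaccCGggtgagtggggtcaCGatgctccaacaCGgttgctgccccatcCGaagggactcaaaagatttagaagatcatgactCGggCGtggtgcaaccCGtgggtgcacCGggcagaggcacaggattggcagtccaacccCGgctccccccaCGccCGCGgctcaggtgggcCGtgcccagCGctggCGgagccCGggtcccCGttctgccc
Unc5b: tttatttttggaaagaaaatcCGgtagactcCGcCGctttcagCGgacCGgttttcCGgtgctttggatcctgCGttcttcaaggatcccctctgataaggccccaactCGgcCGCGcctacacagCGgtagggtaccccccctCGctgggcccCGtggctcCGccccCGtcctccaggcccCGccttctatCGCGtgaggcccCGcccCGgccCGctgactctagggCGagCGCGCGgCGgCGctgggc
Slit1: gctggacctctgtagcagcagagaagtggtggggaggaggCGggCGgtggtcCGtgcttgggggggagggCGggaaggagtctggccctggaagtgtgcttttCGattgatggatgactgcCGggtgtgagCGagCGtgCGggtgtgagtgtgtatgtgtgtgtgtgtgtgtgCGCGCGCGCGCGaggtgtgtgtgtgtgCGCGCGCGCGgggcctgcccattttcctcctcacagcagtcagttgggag
Sema4b: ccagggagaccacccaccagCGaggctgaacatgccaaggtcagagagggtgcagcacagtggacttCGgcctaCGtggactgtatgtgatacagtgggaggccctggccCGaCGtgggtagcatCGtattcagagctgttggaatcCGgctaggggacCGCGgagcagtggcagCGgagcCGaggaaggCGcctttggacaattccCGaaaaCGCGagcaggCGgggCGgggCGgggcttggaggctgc
Robo1: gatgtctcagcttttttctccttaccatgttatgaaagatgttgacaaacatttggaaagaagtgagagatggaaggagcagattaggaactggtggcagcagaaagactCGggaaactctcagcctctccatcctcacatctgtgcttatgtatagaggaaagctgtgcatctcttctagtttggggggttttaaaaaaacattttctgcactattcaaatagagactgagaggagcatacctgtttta

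Smarca4 peaks were called in the gene region (the gene with the 1 kb before its TSS) of 66 of 68 guidance genes in control (70.3% of all protein-coding genes) and of 66 in kd (71.7%). The gene regions differed in how many peaks they held. Together they held 566 peaks in control and 392 in kd, a log2 ratio of −0.53, against −0.23 over the regions of all protein-coding genes. Of the control peaks, 51.6% (95% Wilson interval 47.5 to 55.7, counting error only) overlapped a kd peak, against 58.7% (58.3 to 59.1) in all protein-coding gene regions. Of the kd peaks, 78.8% (74.5 to 82.6) overlapped a control peak, against 72.4% (72.0 to 72.8). Without an overlap in the other list were 274 control peaks and 83 kd peaks, a log2 ratio of −1.72 against −0.81. The covered length was 0.377 Mb in control and 0.234 Mb in kd. Per gene, 39 guidance genes had fewer peaks in kd, 14 had more and 15 had equal numbers, with medians of 5 and 4. Fewer bases were covered in kd in 47 of 67 genes with any coverage (70.1%), against 57.6% of all such genes. With the lists cut to equal length, an alternative added after the data were seen, 514 and 392 peaks remained, and at a score of at least 50 there were 367 and 242.

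The gene region was called in control alone for 1 gene, Robo4 (2.45% of all genes), and in kd alone for 1, Sema3g (3.85%), a secreted semaphorin with 3 peaks in kd. At the TSS, Smarca4 was called in control alone at Robo4 (score 35) and Sema4a (score 64), and 2.69% of all genes were of this kind. Epha6 was the one start with a peak in kd alone (score 83, 3.69% of all genes). These were low scores among guidance genes, whose strongest Smarca4 peaks within 1 kb of the TSS ranged from 35 to 520 in control and from 39 to 510 in kd. The MACS2 score orders peaks within a list and is not scaled between libraries, so a pair of scores is read here against the pairs of other genes. At the 60 guidance genes with a TSS peak in both lists the median score was 252 in control and 191.5 in kd, with a median log2 ratio of −0.43. At 13117 genes of the whole annotation both medians were 171 and the median log2 ratio was 0.03. Scores were lower in kd at 39 of the 60 (65.0%), against 48.2% of all such genes. The TSS peak of Ephb2 had a score of 520 in control and 202 in kd, that of Plxnb2, a receptor of transmembrane semaphorins, 503 and 272, and that of Sema4b 370 and 510.

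The control-only peaks were unevenly spread. Most of them (234 of 274, 85.4%) had their centre in an intron, against 67.5% of the control peaks that overlapped a kd peak. Their median score was 48 against 94, and in all protein-coding gene regions it was 49 against 109. No more than 8 guidance genes held 153 of the 274 (55.8%): Epha4 29, Ephb2 29, Unc5b 22, Slit3 18, Nrp2 16, Ntn1 14, Sema4d 13 and Sema5b 12. Epha4, an Eph receptor that binds ephrins of both classes, had 43 peaks in control and 16 in kd. Ephb2, a receptor of ephrin-B ligands, had 38 and 9, and Unc5b had 36 and 18. Nrp2, a neuropilin, had 37 and 28. Among the ligands, Slit3 had 27 and 19, Ntn1, the netrin best known from commissural axons, 25 and 15, Sema5b, a transmembrane semaphorin, 25 and 16, and Sema4d 15 and 2. Epha4 and Ephb2 had no kd-only peak in the deposited lists. At a score of at least 50 in both lists, Epha4 kept 21 and 7 peaks, Ephb2 23 and 6, and Unc5b 22 and 8. In the other direction Epha6, an Eph receptor with a gene region of 953 kb, had 2 peaks in control and 8 in kd. In the remaining families the genes with most peaks were Plxnb2 (12 and 10), Efnb2 (10 and 7) and Robo1 (15 and 6).

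**Figure D3:**
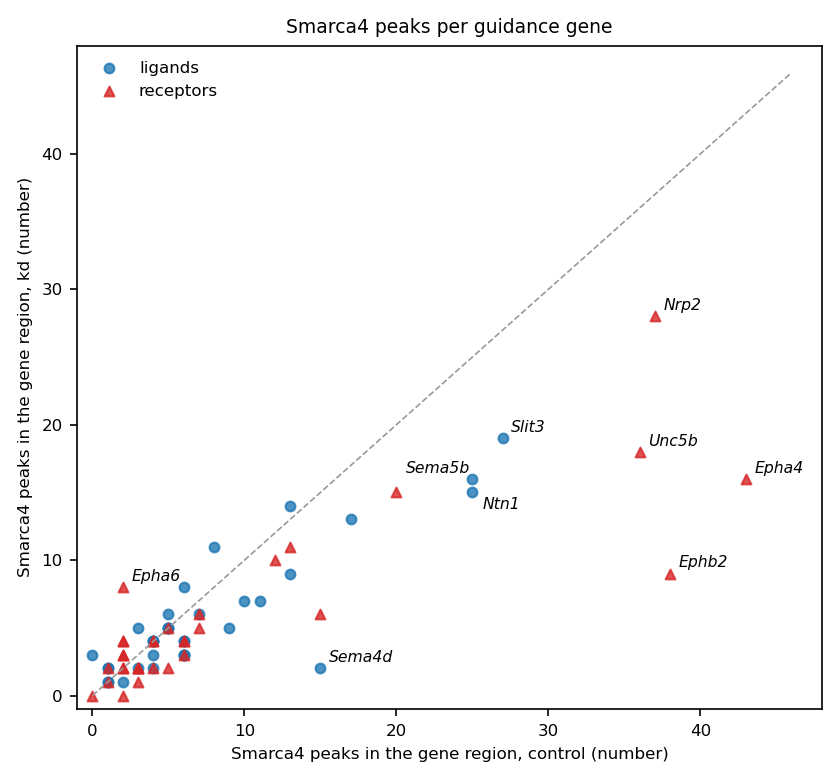
Number of Smarca4 peaks in the gene region of each guidance gene in control (horizontal axis) and kd (vertical axis), with ligands as circles and receptors as triangles; the dashed line marks equal numbers. Epha4 (43 and 16), Ephb2 (38 and 9), Unc5b (36 and 18) and Sema4d (15 and 2) lie far below the line and Epha6 (2 and 8) above it.

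The surroundings of these peaks differed between genes. Of the control-only peaks, 116 of 274 (42.3%) lay in an H3K27me3 island of the control list, 21 (7.66%) in an H3K4me3 island and 18 (6.57%) in an H3K27ac island, against 30.9%, 15.9% and 11.3% of the control-only peaks in all protein-coding gene regions. In Unc5b 21 of 22 and in Ephb2 16 of 29 control-only peaks were in control H3K27me3 islands, and none of either gene was in H3K27ac. In Epha4 none was in H3K27me3, and 11 of 29 were in H3K27ac islands.

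In the deposited lists Epha4 was the one guidance gene with at least 2 times more covered bases in control for both H3K27ac and H3K4me3. It lies on the minus strand of chr1, with its gene region at chr1:77367185-77516088. Smarca4 peaks covered 22.6 kb in control and 6.15 kb in kd. H3K27ac islands covered 24.6 kb in control and 4.8 kb in kd, and the largest one of the control list, an intronic island of 15800 bp (chr1:77443601-77459400), had its centre 63587 bp downstream of the TSS. It was 16.0% repeat-masked, and only 2 islands within its span, of 2800 and 2000 bp, were called in kd. H3K4me3 covered 9.69 kb in control and 4.29 kb in kd. At a stricter threshold (a SICER p of at most 1e-10 for H3K27ac and 1e-20 for the other marks) H3K27ac in Epha4 covered 15.8 and 2 kb and H3K4me3 5.49 and 4.29 kb, so that H3K4me3 no longer differed by 2 times. H3K27me3 covered 2.69 and 0.488 kb, and Ezh2 was called in neither list. In Ephb2, Smarca4 covered 21.8 kb in control and 5.03 kb in kd, and H3K27me3 64.5 and 31.8 kb. Ezh2 at the TSS of Ephb2 had a score of 70 in control and 260 in kd, and an H3K27ac island of 1400 bp at its TSS was called in kd alone.

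**Figure D4:**
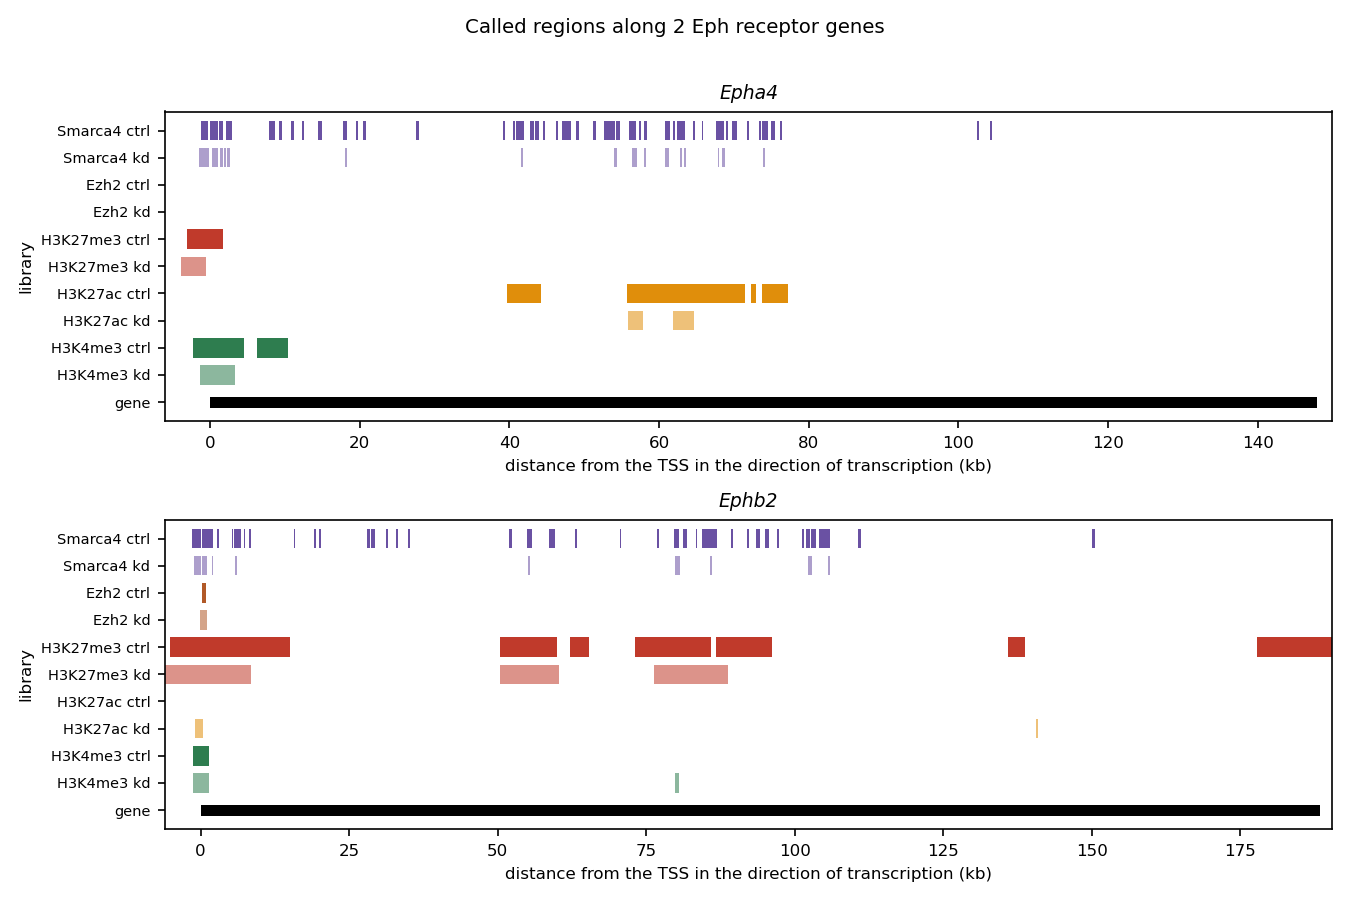
Called regions (boxes) of the 10 libraries along Epha4 and Ephb2, drawn by distance from the TSS in kb in the direction of transcription, with kd libraries in paler colours and the gene as a black bar; regions that run past the gene's edges are cut off. In Epha4 the control H3K27ac islands lie inside the gene among the Smarca4 peaks, and in Ephb2 16 of the 29 control-only Smarca4 peaks lie in control H3K27me3 islands.

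A high-scoring Smarca4 peak called in 1 condition alone is shown for each list by the 200 bases at its centre, on the plus strand of GRCm38, with CG dinucleotides in capitals. In control it was an intronic peak of Plxnb2 5391 bp from the TSS (score 188, chr15:89175297-89175496), with 1 CG. In kd it was an intronic peak of Epha6 821526 bp from the TSS (score 357, chr16:59783905-59784104), with 14 CG and all 200 bases repeat-masked in the reference. The highest score of a control-only peak was 216, in Ephb2. These 2 sequences do not stand for their lists, as the median was 4 CG in control-only and 5 in kd-only peaks of guidance genes.
Plxnb2, control-only: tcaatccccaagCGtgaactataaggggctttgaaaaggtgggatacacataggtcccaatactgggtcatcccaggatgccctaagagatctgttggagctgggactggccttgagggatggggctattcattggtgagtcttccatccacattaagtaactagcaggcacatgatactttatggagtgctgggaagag
Epha6, kd-only: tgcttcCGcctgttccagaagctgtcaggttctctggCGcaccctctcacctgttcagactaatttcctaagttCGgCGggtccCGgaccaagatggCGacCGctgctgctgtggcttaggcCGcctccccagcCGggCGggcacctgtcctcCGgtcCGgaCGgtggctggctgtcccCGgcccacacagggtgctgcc

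The central 200 bases of the peaks were searched on both strands for a GC box (GGGCGG), an AP-1 motif (TGANTCA) and an E-box (CANNTG). A GC box was found in 10.2% of the 274 control-only peaks of guidance genes and in 20.2% of the 292 shared ones. Over the whole control list the shares were 7.37% and 25.3%, and 17.5% of all 79014 control peaks held one. An AP-1 motif was found in 6.20% of the control-only and 5.48% of the shared peaks of guidance genes, against 6.17% and 4.18% over the whole control list. An E-box was found in 69.7% and 62.3%, against 70.1% and 61.4%. Over all control peaks the shares were 5.05% for AP-1 and 65.2% for the E-box. A match is a run of letters and does not show that a factor was bound.

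Ezh2 peaks lay in the gene region of 36 guidance genes in control (12.6% of all protein-coding genes) and of 41 in kd (15.4%). Called in control alone were 4, Efnb1, Epha3, Ephb4 and Robo1 (3.19% of all genes), and in kd alone 9, namely Efna2, Efnb3, Ephb3, Plxna2, Sema3c, Sema4c, Sema5a, Slit1 and Slit2 (5.96%), of which 7 are ligands. At the TSS, 1 gene, Efnb1 (score 34), was called in control alone (0.283% of all genes) and 9 in kd alone (5.78%), which were Slit1 (score 175), Efna2 (105), Sema3c (69), Ephb3 (64), Efnb3 (60), Sema5a (60), Sema3d (47), Sema4c (25) and Ntn1 (20). The number of Ezh2 peaks in the guidance genes was 59 in either list, but they covered 0.0363 Mb in control and 0.0651 Mb in kd, a log2 ratio of 0.84 against 0.80 over all protein-coding gene regions. The median width of these peaks was 479 bp in control and 974 bp in kd.

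At all 28 guidance genes with an Ezh2 peak at the TSS in both lists the score was higher in kd, as it was at 95.4% of the 1502 genes of this kind. The median score of the guidance genes was 118.5 in control and 336.5 in kd, a median log2 ratio of 1.81 against 1.46 for all, so that the direction was shared with the whole list. Plxna4, a receptor of secreted semaphorins, had the highest score in kd (312 in control and 1089 in kd), followed by Plxnd1 (290 and 805). Unc5b had 138 and 756, Sema3f, a secreted ligand of Nrp2, 120 and 756, and Ntn4 138 and 676. The lowest pairs were those of Robo2 (21 and 114) and Sema6b (37 and 44). Most bases covered in kd beyond control were found in Nrp2 (0.492 and 3.57 kb), Ntn1 (0.490 and 2.64 kb) and Slit2 (0 and 2.10 kb), and the reverse in Epha3 (1.82 and 0 kb), Robo1 (0.667 and 0 kb) and Sema3d (0.922 and 0.301 kb). At least 50% of the bases were repeat-masked in 11 of the 59 control peaks and in none of the 59 kd peaks of guidance genes, against 28.3% and 1.32% in all protein-coding gene regions. The strongest control-only peaks, in Ephb1 (score 190, 62.1% repeat-masked), Sema5b (167, 98.9%) and Robo1 (152, 89.6%), were of this kind. The strongest kd-only peaks, in Sema6d (230, 5.95%), Unc5a (186, 10.7%) and Plxna2 (186, 2.44%), were not.

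H3K27me3 islands lay in the gene region of 63 guidance genes in control (42.4% of all protein-coding genes) and of 62 in kd (35.6%). In control alone were Ephb4 and Plxnb3 (9.74% of all genes), and in kd alone was Sema3e (2.95%), a secreted ligand of Plxnd1, with 0.2 kb. At the TSS, 4 genes were called in control alone (8.15% of all genes), with islands of 17800 bp at Ntn5, 5600 bp at Efna4, 4200 bp at Plxnb3 and 2200 bp at Ephb4, and 1 in kd alone, Robo4 (2.39%). The islands of Ntn5, Efna4 and Robo4 overlapped an island of the other list. At least 2 times more bases were covered in control in 17 guidance genes (15.9% of all genes) and in kd in 6, Epha6, Epha7, Plxna2, Sema3a, Sema3e and Unc5d (4.92%). Together the guidance genes held 1.12 Mb of H3K27me3 in control and 0.795 Mb in kd, a log2 ratio of −0.50, close to the −0.51 of all protein-coding gene regions. In single genes, 34 had less and 25 more in kd, or 53.1% and 39.1% of those with any, against 61.6% and 27.1% of all such genes.

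The 3 guidance genes with the largest difference were also those with the most H3K27me3 in control. Slit3 had 99.5 kb in control and 29.3 kb in kd, Ephb1, a receptor of ephrin-B ligands, 98.7 and 41.9 kb, and Slit1 72.8 and 23.5 kb. In Slit3 the control list had 14 islands, 9 of them without an overlap in kd, while the island over the TSS was called in both lists with 10400 and 10800 bp. In Slit1, 5 of 8 islands were in control alone, all inside or at the end of the gene, and the island over the TSS had 19600 bp in control and 11400 bp in kd. More bases in kd were found in Epha6 (2.73 and 22.9 kb), Unc5d (11.8 and 30.0 kb) and Sema6d (20.0 and 30.0 kb). With lists of equal length Slit3 had 73.7 and 29.3 kb, Slit1 72.8 and 23.5 kb and Unc5d 7.44 and 30.0 kb. At the stricter threshold Slit3 had 69.7 and 17.3 kb, Slit1 62.7 and 7.27 kb, Ephb1 79.7 and 36.3 kb, Epha6 2.73 and 9.93 kb and Unc5d 7.44 and 20.8 kb, each in the same direction. No more than 2 of 125 control islands and 4 of 108 kd islands in guidance genes were repeat-masked over at least 50% of their bases.

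**Figure D5:**
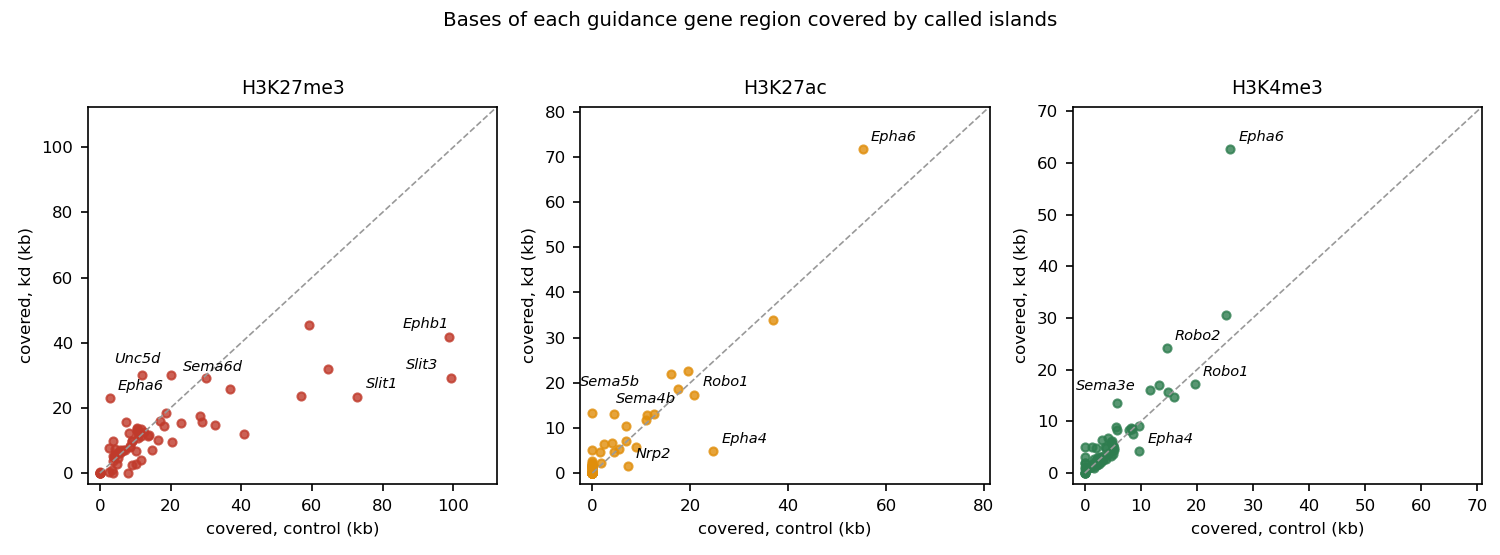
Bases of the gene region covered by called islands (kb) in control (horizontal axes) and kd (vertical axes), 1 point per guidance gene, for H3K27me3, H3K27ac and H3K4me3; the dashed lines mark equal values. Slit3, Ephb1 and Slit1 lie far below the line for H3K27me3, Epha4 below it for H3K27ac and H3K4me3, and Epha6 above it in all 3 panels.

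H3K27ac islands lay in the gene region of 21 guidance genes in control (32.4% of all protein-coding genes) and of 39 in kd (48.2%). None was called in control alone (3.06% of all genes), and 18 were called in kd alone (18.9%), 9 ligands and 9 receptors. At the TSS none was in control alone (1.83% of all genes) and 10 were in kd alone (16.8%), and the share of guidance genes, 10 of 68 or 14.7%, was near that of the annotation. The 10 were Efna4, Ntn1, Ntn4, Sema5b and Sema6c among the ligands and Epha2, Ephb2, Plxna1, Plxnb1 and Plxnb2 among the receptors. The longest of these islands were 5400 bp at Epha2, an Eph receptor of ephrin-A ligands, and 4200 bp at Sema5b, followed by 2200 bp at Ntn4 and Sema6c and 2000 bp at Plxnb1. Of the 10 starts, 6 were bivalent in both lists (Ephb2, Ntn1, Ntn4, Plxna1, Sema5b and Sema6c), and Epha2, Plxnb1 and Plxnb2 had H3K4me3 without H3K27me3 in both. The island at the start of Efna4 was called in the list in which H3K27me3 was not called within 1 kb of the TSS. In its gene region H3K27me3 covered 3.81 kb in control and 3.61 kb in kd.

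By covered bases, at least 2 times more H3K27ac was found in control in Epha4 and Nrp2 (7.2 and 1.6 kb), 2 genes in all (5.69% of all genes), and in kd in 21 (22.9%). Sema5b had no island in control and 5 islands with 13.2 kb in kd, of which the strongest, 4400 bp long, had its centre 47056 bp into the gene. With lists of equal length, as at the stricter threshold, Sema5b had 4.4 kb in kd and none in control. An H3K4me3 island of 4400 bp at 44656 bp in Sema5b was also called in kd alone, while the number of Smarca4 peaks in that gene was 25 in control and 16 in kd. Sema4b, the only guidance ligand with H3K27ac at the TSS in control, had 4.4 kb in control and 13.2 kb in kd. Of those with any H3K27ac, 33 guidance genes had more in kd and 5 less, 84.6% and 12.8% against 65.9% and 30.0% of all such genes. Fewer bases in kd were also found in Robo1 (20.8 and 17.4 kb).

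H3K27ac islands at gene starts and elsewhere differed in sequence. Repeat-masked over at least 50% of their bases were none of the 2 control and 12 kd islands within 1 kb of a guidance TSS, but 47 of the other 60 control islands (78.3%) and 67 of the other 90 kd islands (74.4%). Of all islands in guidance genes, at the TSS or not, 75.8% in control and 65.7% in kd were repeat-masked in this way. In all protein-coding gene regions the shares were 57.4% of control and 52.2% of kd islands. With the repeat-masked islands left out, H3K27ac was called in the gene region of 9 guidance genes in control and 21 in kd. The shares of all genes were then 21.1% and 35.6%. H3K27ac then covered 71.3 kb in control and 96.8 kb in kd, a log2 ratio of 0.44 against 0.36 over all protein-coding gene regions. All islands together covered 279 and 337 kb, a log2 ratio of 0.27 against 0.25. With lists of equal length H3K27ac covered 279 and 293 kb, a log2 ratio of 0.07 against −0.02. Without the repeat-masked islands, the values of Epha4 (24.0 and 4.8 kb) and Sema5b (0 and 13.2 kb) differed from those above by at most 1 island. With lists of equal length Epha4 had 24.6 and 2 kb and Sema5b 0 and 4.4 kb.

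H3K4me3 islands lay in the gene region of 58 guidance genes in control (63.4% of all protein-coding genes) and of 64 in kd (68.1%). None was called in control alone (0.825% of all genes) and 6 in kd alone (5.49%), which were Efna1, Efnb3, Robo3, Sema3b, Sema4a and Slit1. At the TSS, 1 was called in control alone, Plxna2 with an island of 2200 bp (0.779%), and 6 in kd alone (4.59%), with islands of 3200 bp at Efna1, 1800 bp at Epha6, 1200 bp at Efnb3 and Slit1, and 800 bp at Epha3 and Robo3. At least 2 times more bases were covered in control in 1 guidance gene, Epha4 (3.76% of all genes), and in kd in 11 (9.56%). Of 98 control islands 2 had no overlap in kd, and of 125 kd islands 33 had none in control. Those with an overlap were 98.0% of control and 73.6% of kd islands, against 94.8% and 80.0% in all protein-coding gene regions. The covered length was 331 kb in control and 425 kb in kd, a log2 ratio of 0.36 against 0.12 over all protein-coding gene regions. With islands at least 50% repeat-masked left out it covered 206 and 230 kb, a log2 ratio of 0.16 against −0.08, and with lists of equal length 331 and 388 kb, 0.23 against −0.04. All gene regions together thus had less H3K4me3 in kd under both of these settings and more in the deposited lists. Less H3K4me3 in kd was found in Epha4, in Robo1 (19.6 and 17.2 kb) and in Ephb3 (5.05 and 3.6 kb), and more in Epha6 (26 and 62.7 kb), Robo2 (14.6 and 24.2 kb) and Sema3e (5.8 and 13.6 kb).

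Epha6 had the most H3K27ac and H3K4me3 of all guidance genes in both lists, and 37.0% of its gene region is repeat-masked in the reference, against a median of 16.8% over the guidance genes. H3K27ac covered 55.2 kb in control and 71.8 kb in kd, in 11 and 16 islands, and all of these islands were repeat-masked over at least 50% of their bases. With such islands left out, no H3K27ac remained in either list, and H3K4me3 covered 0 kb in control and 1.73 kb in kd, the island at the TSS. Of the 8 Smarca4 peaks in kd, 2 remained, both within 1 kb of the TSS, with scores of 83 and 56, where none had been called in control. H3K27me3 in Epha6 was 2.73 kb in control and 20.9 kb in kd after the same step. The kd-only Smarca4 peaks with the highest scores among guidance genes, in Epha6 (357), Robo2 (178) and Robo1 (129), were 97.6%, 100% and 100% repeat-masked.

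Across the 68 genes the differences between kd and control in covered bases were compared between antibodies. For Smarca4 and H3K27me3 Pearson's r was 0.26 and Spearman's rho 0.22, for Smarca4 and H3K27ac 0.36 and −0.02, and for H3K27ac and H3K4me3 0.63 and 0.32. These are descriptions over genes that share the same 2 libraries per antibody and differ in length, and genes are not replicates.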

How the data were processed

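Called regions of 5 antibodies in control and kd 81K1 cells were compared, 1 library each, with 4 inputs used in the authors' calling alone. The authors aligned reads to mm10, kept unique alignments with SAMtools 1.9, and ran MACS2 for Smarca4 and Ezh2 and SICER (window 200 bp, gap 600 bp) for the histone marks. The labels of the inputs name IgG, so the background is not certain. By the methods, Smarca4 and H3K27me3 were processed by a company and the other antibodies in the authors' laboratory, and laboratory and antibody cannot be told apart. The deposited score is the authors' MACS2 score and the deposited p-value the authors' SICER p-value, neither scaled between libraries.

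Regions of chromosomes 1 to 19 and the sex chromosomes were intersected with gene regions and TSS windows of GENCODE M21 (GRCm38) in Python 3.11.15 (pandas 2.3.3), asking for at least 1 bp. GENCODE M21 is not the release used in the study. Bases in lower case in the reference were taken as repeat-masked, without the kind of repeat. Intervals are 95% Wilson intervals. Overlaps were first tested on simulated data.

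Members and gene lists were chosen with earlier results of these data known. Genes named are those with the 3 largest losses and gains of covered bases per antibody, up to 5 starts called in 1 condition alone, the gene with most Smarca4 peaks per family, all genes of counts of 5 or fewer and starts bivalent in 1 condition. Other genes were named after their values were seen. Regions of 8 guidance genes overlap another protein-coding gene, and 3 called regions lie in 2 guidance genes. The 6 alternatives were a stricter threshold (score of at least 50, p of at most 1e-10 for H3K27ac and 1e-20 for the other marks), 50% overlap, regions less than 50% repeat-masked, lists of equal length, the TSS of any transcript, and the gene body. Peak numbers and covered bases under the stricter threshold, without repeat-masked regions and in lists of equal length were added after the data were seen.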

Additional observations from a re-analysis of the deposited data

How the results depend on the processing

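Of 184 values for 38 counts of guidance genes under the alternatives, 160 stayed within 1.5 times of the reported count and 24 did not, most of them counts of 5 or fewer. In lists of equal length, Smarca4 was called in kd alone for 2 guidance genes, in control alone Ezh2 for 2, H3K27me3 for 1, H3K27ac for 1 and H3K4me3 for 1, and 2 times more H3K4me3 was covered in control in 2 and in kd in 6. Without regions at least 50% repeat-masked, Smarca4 was called in kd alone for 2 (3.40% of all genes under that setting). Ezh2 was then in control alone for 2 (0.552%) and H3K27me3 in kd alone for 0 (2.76%). H3K27ac was then in the gene region of 9 in control (21.1%) and 21 in kd (35.6%) and in control alone for 1 (3.11%). There were 2 times more bases in control in 4 for H3K27ac (5.50%) and 2 for H3K4me3 (3.55%). At the stricter threshold, Smarca4 was called in kd alone for 2 (4.81% of all genes) and H3K4me3 in control alone for 1 (0.757%). H3K27ac was at the TSS in control for 1 (9.29%), and 2 times more H3K27ac was covered in control in 1 (5.50%). In gene bodies, Smarca4 was called in kd alone for 3, H3K27me3 in control alone for 4, and 2 times more H3K4me3 was covered in control in 5. With 50% overlap H3K27me3 was called in control alone for 5 (9.29% of all genes), and with the TSS of any transcript H3K27ac in control at 4. Covered bases were not run under 50% overlap, which does not define them.

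The cause of these differences was not tested. No paired analysis was possible because each antibody and condition has 1 library, which also leaves no replicate to leave out. The depth reached by each library is not in the lists, and a difference between lists cannot be told apart from a difference in depth.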

Other observations

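Other genes of the guidance pathways, 40 co-receptors and intracellular transducers chosen by role, were read in the same way, as a description and without a comparison with the ligands and receptors. Smarca4 was called within 1 kb of the TSS of 36 in control and 33 in kd (62.5% and 63.5% of all protein-coding genes). H3K27me3 was called at 33 in both (34.9% and 29.2%), and H3K4me3 at 31 and 32 (56.6% and 60.4%). Smarca4 was in control alone at Flrt1, Flrt2 and Chl1, 3 cell surface proteins (2.69% of all genes). Ezh2 was called at 9 starts in control (7.13% of all genes) and 15 in kd (12.6%). It was in control alone at Pak1, a kinase (0.283%), and in kd alone at 7 (5.78%), namely Dscam, Boc, Dpysl3, Mical2, Srgap1, Fyn and Ablim1. Boc, a co-receptor of commissural axons, had 1.06 kb of Ezh2 in kd and none in control, with 21.3 kb of H3K27me3 in control and 16.5 kb in kd. H3K27ac was called at 5 starts in control (16.0% of all genes) and 9 in kd (30.9%), in kd alone at Cdon, Dpysl2, Srgap2 and Nck1 (16.8%).

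The netrin receptors Dcc and Neo1 carried different marks. Dcc, the receptor that mediates attraction, had H3K27me3 at the TSS in both lists (6.07 kb in control and 17.5 kb in kd in the gene region) and neither H3K27ac nor H3K4me3 there. Neo1, its relative neogenin, had H3K27ac and H3K4me3 at the TSS in both lists and no H3K27me3, with 7.44 kb of H3K27ac in control and 4.64 kb in kd.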
